A study of Mus musculus with 24 samples.

Results

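The genes described here are 42 genes of cell proliferation that follow a dividing cell from the start of DNA synthesis to the splitting of the cell. They form a list of named genes, and 41 of the 42 were found among the 14407 genes of the deposited expression table. The expression of Cdc6, a helicase loader, is not analysed here. Of the 41, 18 act in DNA replication or at the entry into S phase and 23 act from G2 to cytokinesis, called the mitosis genes below. Of the 41, 40 passed the filter on low values (at least 1 FPKM, fragments scaled to gene length and library size, in at least 4 of 24 libraries) and were tested. Cenpf, a kinetochore protein, was found and did not pass.

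A cell commits to division when E2F transcription factors switch on the replication genes. The MCM2-7 helicase is loaded on DNA, activated with Cdc45 and the GINS complex, and followed by DNA polymerases held by the Pcna clamp. The DREAM complex holds cell cycle genes off in resting cells, and later B-Myb with the MuvB complex and then Foxm1 switch on the mitosis genes, whose products condense, align and separate the chromosomes. In healthy adult kidney few cells divide, while after injury tubule cells, fibroblasts and macrophages can enter the cycle.

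RNA was sequenced from whole left kidneys of wildtype mice. Obstructed kidneys had unilateral ureteral obstruction (UUO), the closing of the ureter of 1 kidney, and the comparison kidneys had a sham operation. The mice received istradefylline, an adenosine receptor antagonist, in a late or an early intervention, or vehicle. The 6 groups of 4 libraries each were UUO late (obstruction with late istradefylline), UUO early (obstruction with early istradefylline), UUO vehicle, sham late, sham early and sham vehicle. All groups share the wildtype genotype and the left kidney. The labels give no strain, sex, age, dose, course days or collection time. Whether each library is a different mouse is not stated, so p-values measure the spread between these libraries, which may be technical. In whole kidney RNA, a change in the number of dividing cells and a change in the RNA per cell cannot be told apart.

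The estimated depth lay between 7720000 and 19690000 fragments per library, with a median of 10300000 fragments. The sham late libraries had 7720000 to 8760000 fragments, each fewer than any sham vehicle library, which had 10260000 to 10740000. Markers of proximal tubule, 10 genes, summed to 181 to 1138 FPKM in the UUO libraries and 2152 to 3307 FPKM in the sham libraries. Macrophage markers, 11 genes, summed to 1061 to 3595 FPKM in UUO libraries and 43.9 to 73.6 FPKM in sham libraries. The library UUO early 4 stood apart, with 3139 FPKM of skeletal muscle markers and 1410 FPKM of neutrophil markers. In the other 11 UUO libraries the muscle markers summed to at most 161 FPKM and the neutrophil markers to at most 157 FPKM. Sham vehicle 3 stood apart in the proliferation genes themselves, as described below.

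The promoters of the proliferation genes held different short strings in the replication and the mitosis genes. RefSeq promoters of build GRCm38.p6, 250 bases before to 50 bases after the annotated start site, were found for 34 of the 42 genes, 16 of replication (Cdc6 included) and 18 of mitosis. None was found for Foxm1, Aurkb, Tpx2, Ccna2, Gins2, Kif20a, Ccne2 and Mcm4. Both strands were searched, and overlapping matches were counted. E2F-type strings (TTTGGCGC, TTTCCCGC, TTTCGCGC or TTTGCCGC) stood in the promoters of 7 of 16 replication genes (43.8%) and of 1 of 18 mitosis genes (5.56%), against 4.2% of the 11064 genes of the expression table with a promoter and 2.6% of all 27025 genes. The replication genes with a match were Cdc6, Cdt1, Mcm3, Mcm5, Mcm6, Mcm7 and Uhrf1, and the mitosis gene was Cdk1. A gene was counted when any of its promoters matched. Mcm7 and Uhrf1 have 2 promoters each, and only 1 of the 2 held an E2F-type string. The windows of E2f1 and Mcm7 lay inside the locus of the gene in the expression table, so bases upstream of that locus were not searched. The string of the cell cycle homology region (TTTGAA or TTCGAA), the element that the MuvB core shared by these complexes is known to bind, stood in 3 of 16 replication genes (18.8%) and 15 of 18 mitosis genes (83.3%), against 16.8% of the table's genes and 21.7% of all genes. CCAAT, the string bound by the factor NF-Y, was found in 62.5% of the replication and 94.4% of the mitosis promoters, against 42.3% of the table's genes and 41.1% of all genes. Both of these strings together stood in 18.8% of the replication and 83.3% of the mitosis promoters, against 6.94% of the table's genes and 8.61% of all genes.

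The following promoters are those of the replication genes Mcm3, Mcm6 and Uhrf1 and the mitosis genes Ccnb2, Ube2c, Mki67 and Cdk1, shown because their values are described below and they hold the strings in different arrangements, with the searched strings and their reverse complements in capitals. Each is given 5′ to 3′ on the gene's own strand, from RefSeq, GRCm38.p6.
Mcm3: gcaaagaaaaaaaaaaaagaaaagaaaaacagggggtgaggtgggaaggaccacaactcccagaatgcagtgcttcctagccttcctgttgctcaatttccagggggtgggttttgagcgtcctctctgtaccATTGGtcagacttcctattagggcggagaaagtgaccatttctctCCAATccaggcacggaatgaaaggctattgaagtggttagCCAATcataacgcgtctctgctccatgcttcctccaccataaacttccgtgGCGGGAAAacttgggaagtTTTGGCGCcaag
Mcm6: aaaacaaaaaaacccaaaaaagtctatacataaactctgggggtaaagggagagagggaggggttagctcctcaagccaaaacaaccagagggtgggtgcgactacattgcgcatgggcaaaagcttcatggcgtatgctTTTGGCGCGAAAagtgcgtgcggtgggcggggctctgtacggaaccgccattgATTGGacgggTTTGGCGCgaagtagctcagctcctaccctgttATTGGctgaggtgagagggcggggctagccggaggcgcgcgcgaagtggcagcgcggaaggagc
Uhrf1: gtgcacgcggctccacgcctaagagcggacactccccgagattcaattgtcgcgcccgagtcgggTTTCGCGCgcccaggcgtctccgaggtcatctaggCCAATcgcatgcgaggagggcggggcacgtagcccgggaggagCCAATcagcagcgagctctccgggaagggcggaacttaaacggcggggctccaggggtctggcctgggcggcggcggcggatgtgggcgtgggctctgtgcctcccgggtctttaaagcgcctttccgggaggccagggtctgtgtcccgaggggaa
Ccnb2: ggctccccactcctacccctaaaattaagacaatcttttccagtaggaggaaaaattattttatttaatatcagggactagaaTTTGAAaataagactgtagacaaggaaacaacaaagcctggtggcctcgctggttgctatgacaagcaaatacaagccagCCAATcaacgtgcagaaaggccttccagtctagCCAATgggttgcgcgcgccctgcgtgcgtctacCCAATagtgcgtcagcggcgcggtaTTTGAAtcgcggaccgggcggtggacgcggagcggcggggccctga
Ube2c: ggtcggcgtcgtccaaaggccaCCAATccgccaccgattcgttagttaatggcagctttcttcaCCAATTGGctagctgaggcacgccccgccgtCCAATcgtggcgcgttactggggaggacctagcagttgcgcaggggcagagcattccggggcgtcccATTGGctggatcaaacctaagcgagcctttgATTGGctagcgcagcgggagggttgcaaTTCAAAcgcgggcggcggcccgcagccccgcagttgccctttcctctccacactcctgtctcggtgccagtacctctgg
Mki67: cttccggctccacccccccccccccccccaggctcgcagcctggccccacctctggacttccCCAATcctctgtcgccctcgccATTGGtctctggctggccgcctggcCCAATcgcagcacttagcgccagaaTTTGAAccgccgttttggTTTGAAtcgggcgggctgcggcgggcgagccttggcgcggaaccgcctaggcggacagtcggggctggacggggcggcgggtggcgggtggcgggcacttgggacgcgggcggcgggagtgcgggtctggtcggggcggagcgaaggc
Cdk1: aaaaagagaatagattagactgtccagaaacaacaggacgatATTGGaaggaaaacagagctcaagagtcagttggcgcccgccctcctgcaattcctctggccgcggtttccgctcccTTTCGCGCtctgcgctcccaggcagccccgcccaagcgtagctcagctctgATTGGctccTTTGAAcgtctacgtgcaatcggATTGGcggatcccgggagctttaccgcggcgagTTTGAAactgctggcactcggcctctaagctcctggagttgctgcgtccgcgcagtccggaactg
In Mcm3 (chr1:20820263-20820562, minus strand) both E2F-type strings follow the start site, at 20 and 39 bases. In Mcm6 (chr1:128359656-128359955, minus strand) they precede it, at -110, -106 and -47, and the matches at -110 and -106 overlap. In the promoter of Uhrf1 shown (chr17:56304063-56304362, plus strand), 1 of 2 in the table, the string stands at -185. The other promoter of Uhrf1 (chr17:56303087-56303386) held 0 E2F-type strings. Ccnb2 (chr9:70421505-70421804, minus strand) has 3 CCAAT strings followed by TTTGAA at 5 bases after the start, and Ube2c (chr2:164769679-164769978, plus strand) has the homology string at -29. Mki67 (chr7:135716330-135716629, minus strand) has its nearest homology string at -98, the farthest from the start of the 15 genes. Cdk1 (chr10:69352863-69353162, minus strand) held all 3 kinds of string. Counting the nearest match of each gene, 14 of the 18 mitosis promoters (77.8%) had the homology string between 60 bases before and 50 bases after the start, against 1 of 16 replication promoters (6.25%) and 4.86% of the table's genes. A match describes letters in this window and does not show that a factor binds there.

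**Figure D1:**
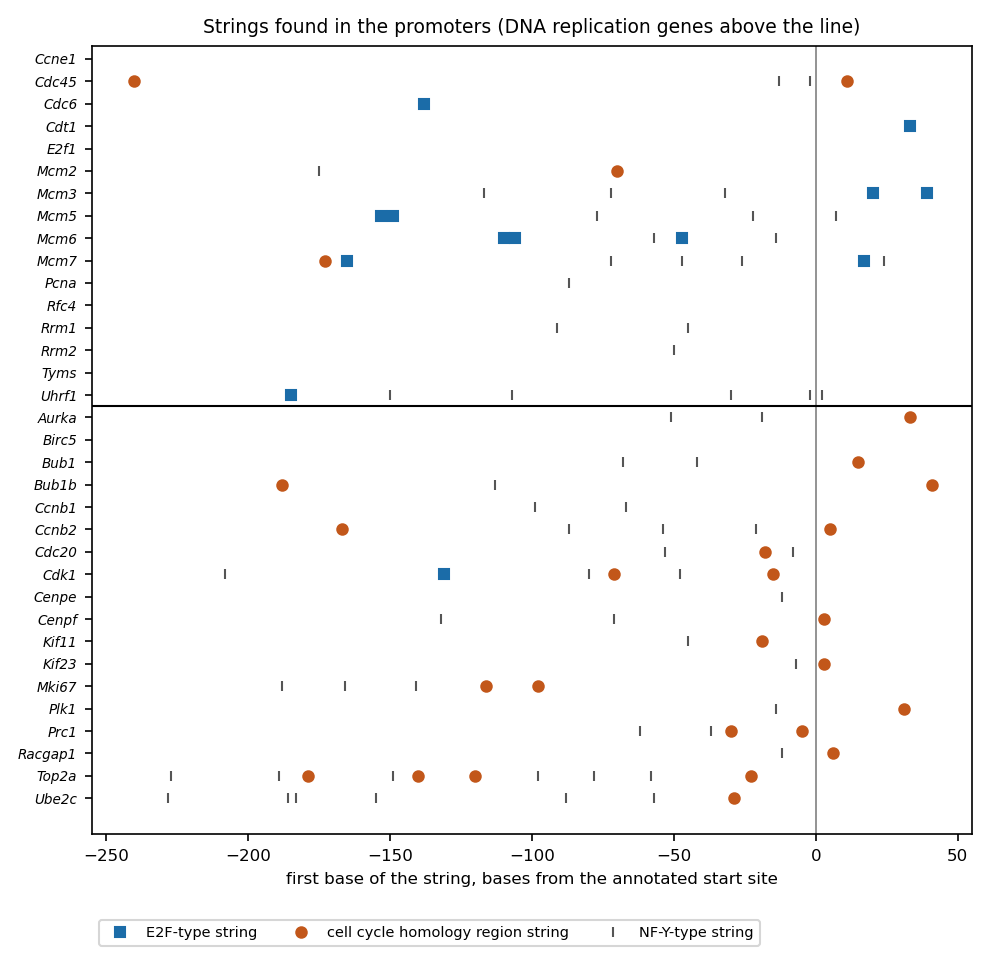
Position of each searched string in the promoters of 34 proliferation genes, the first base of the string in bases from the annotated start site. Squares are E2F-type strings, circles are cell cycle homology strings and bars are CCAAT, here named for the factor NF-Y. Genes with no symbol hold none of the strings. In the mitosis genes, below the line, the circles gather near the start site, with a median position of 3 for the nearest string of each gene.

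The first question was how obstruction without drug altered the proliferation genes. The 18 replication genes and the 22 tested mitosis genes were higher in UUO vehicle than in sham vehicle kidneys, each past an adjusted p of 0.05 (limma on log2(FPKM + 1), Benjamini-Hochberg over the 13127 tested genes). Of all tested genes, 67.0% passed in this comparison, 50.3% upward and 16.7% downward. Only 16 of the 40 genes would have passed the filter through the sham libraries alone, 14 of replication and, of mitosis, Ccnb2 and Cdc20. The other 24 entered the test only with UUO libraries, so a count of calls among them is favoured by the filter. The same holds, here and in the drug courses, for their changes and for counts of groups that do not overlap. Of the 16, all 14 replication genes and both mitosis genes rose, against 43.9% of the 11036 genes that sham libraries alone would have admitted.

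The median log2 change was 1.00 for the replication genes and 1.37 for the tested mitosis genes, against 0.32 for all tested genes. Because 1 is added to each value, the log2 scale understates the change of genes with low levels. As a ratio of mean FPKM, UUO vehicle over sham vehicle, the median was 2.47 for replication genes (range 1.32 to 10.2), 6.09 for mitosis genes (range 3.22 to 13.1) and 1.33 for all tested genes. All 4 UUO vehicle libraries stood above all 4 sham vehicle libraries for 16 of 18 replication and 18 of 22 mitosis genes, a pattern that 44.3% of all tested genes showed.

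The shift of all genes depends on how libraries are scaled. When the libraries were rescaled by median-of-ratios factors, the median of all tested genes was 0.019 in place of 0.322 on the log2 scale, the replication median was 0.71 and the mitosis median 1.18. Under that scaling 14 replication and 21 mitosis genes passed, and Cdt1, Gins2, Rfc4, Tyms and Foxm1 did not.

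**Figure D2:**
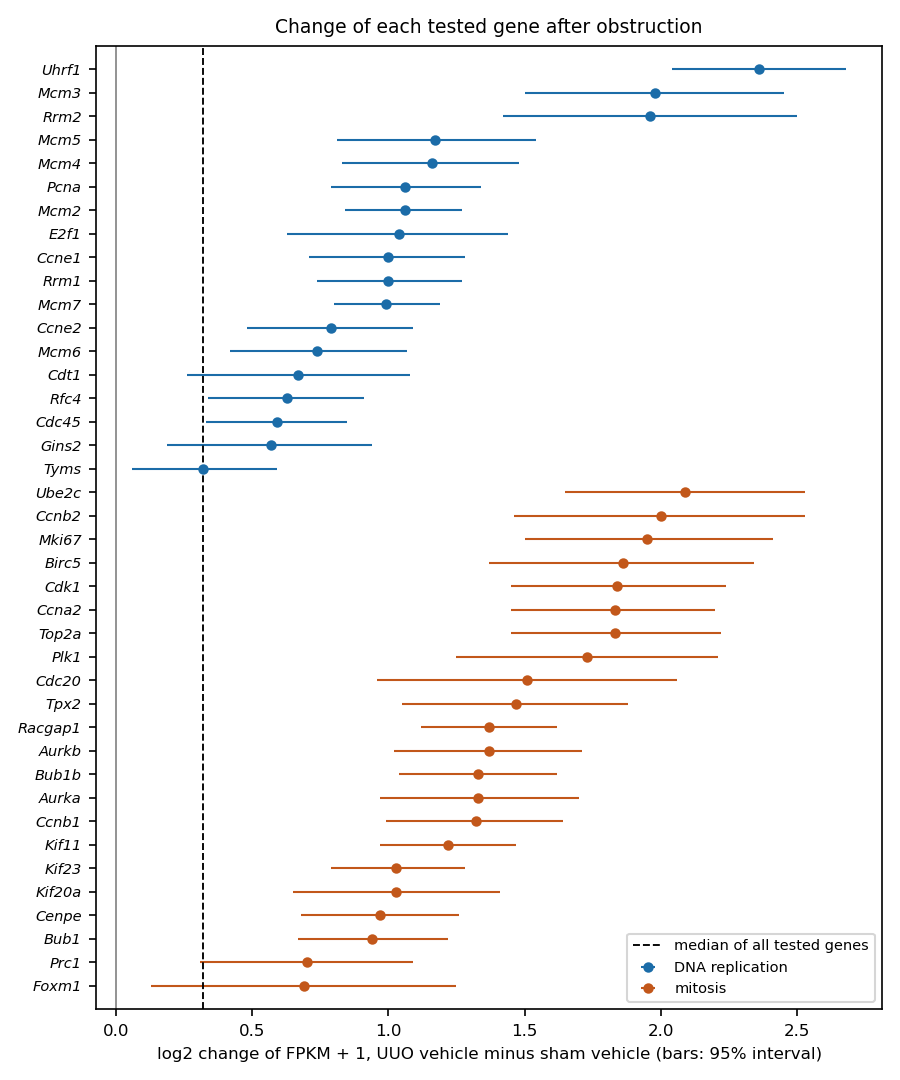
Log2 change of FPKM + 1 of each tested proliferation gene, UUO vehicle minus sham vehicle, with bars for the 95% interval from limma. The dashed line is the median of all tested genes, 0.32. Uhrf1 at 2.36 and Ube2c at 2.09 lead the replication and the mitosis genes, and Tyms at 0.32 lies on the line.

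Among the helicase genes, Mcm6, a subunit of the MCM2-7 ring, had the highest level. It stood at 11.2, 14.9, 12.6 and 12.6 FPKM in UUO vehicle libraries 1 to 4, against 5.2, 9.62, 9.81 and 5.44 FPKM in sham vehicle libraries 1 to 4. All UUO vehicle values were above all sham vehicle values, though sham vehicle 2 and 3 lay well above the other pair. Mcm6 rose by a log2 change of 0.74 (SE 0.15, adjusted p = 0.000278). Mcm3, another subunit of the ring, stood at 3.7, 7.82, 8.82 and 8.19 FPKM in UUO vehicle and at 1.22, 1.53, 0.822 and 0.528 FPKM in sham vehicle libraries. The groups did not overlap, and UUO vehicle 1 was less than the other 3. Mcm3 rose by 1.98 (SE 0.23, adjusted p = 2.22e-07), the most of the MCM genes by this scale and by ratio of means (6.96). The other 4 MCM subunits rose as well, by 0.99 for Mcm7, 1.06 for Mcm2, 1.16 for Mcm4 and 1.17 for Mcm5, so the subunits of 1 complex differed in size of change.

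Genes that load and start the helicase were also higher. Cdt1, which loads MCM2-7 with Cdc6, rose by 0.67 (adjusted p = 0.00527). Cdc45, the activator that travels with the helicase, rose by 0.59 (adjusted p = 0.000323). Gins2, a GINS subunit, stood at 2.62, 6.27, 5.4 and 4.52 FPKM in UUO vehicle and 2.19, 3.9, 2.94 and 2.12 FPKM in sham vehicle libraries. Its groups overlapped, because UUO vehicle 1 fell among the sham values. Gins2 rose by 0.57 (SE 0.18, adjusted p = 0.00871).

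The sliding clamp Pcna was the most abundant member, with 33.6, 30.6, 31.8 and 28.6 FPKM in UUO vehicle and 12.9, 17.8, 14.8 and 12.4 FPKM in sham vehicle libraries. The groups were far apart, with little spread among obstructed kidneys. Pcna rose by 1.06 (SE 0.13, adjusted p = 6.63e-07), and Rfc4, a subunit of the loader that puts the clamp on DNA, rose by 0.63 (adjusted p = 0.000385).

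Of the enzymes that supply deoxynucleotides, Rrm2, the regulated subunit of ribonucleotide reductase, stood at 7.51, 12.2, 9.42 and 10.2 FPKM in UUO vehicle libraries. In sham vehicle libraries Rrm2 stood at 1.08, 1.07, 5.57 and 1.04 FPKM. Sham vehicle 3 was about midway between the other sham libraries and the obstructed ones. Rrm2 rose by 1.96 (SE 0.26, adjusted p = 1.44e-06), and the ratio of means was 4.5 with and 9.28 without sham vehicle 3. Its partner subunit Rrm1 rose by 1.00 (adjusted p = 7.83e-07). Tyms, thymidylate synthase, stood at 2.91, 3.34, 3.04 and 3.35 FPKM in UUO vehicle and at 1.55, 3.5, 2.12 and 2.41 FPKM in sham vehicle libraries. The groups overlapped, since sham vehicle 2 was the highest of the 8. Its log2 change of 0.32 (SE 0.13, adjusted p = 0.0289) was the smallest of the replication genes, equal to the median of all tested genes, and without sham vehicle 3 it was 0.29 (adjusted p = 0.0719).

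The genes grouped here around S phase entry included the gene with the largest change on the log2(FPKM + 1) scale. Uhrf1, which keeps DNA methylation on newly made strands, stood at 6.5, 8.42, 8.02 and 7.73 FPKM in UUO vehicle and at 0.4, 0.77, 1.56 and 0.267 FPKM in sham vehicle libraries. The groups were far apart, with sham vehicle 3 the highest of the sham libraries. Uhrf1 rose by 2.36 (SE 0.15, adjusted p = 5.66e-11), a ratio of means of 10.2 with and 16 without sham vehicle 3. By that ratio the mitosis gene Bub1 was higher, at 13.1 with and 22.8 without that library. E2f1, an activating E2F, rose by 1.04 (SE 0.19, adjusted p = 9.07e-05). The cyclin E genes Ccne1 and Ccne2, which open S phase with Cdk2, rose by 1.00 and 0.79 from levels under 1 FPKM in every sham vehicle library.

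Of the cyclins of G2 and mitosis and their kinase, Ccnb2, a B-type cyclin, stood at 5.84, 12.9, 9.75 and 9.99 FPKM in UUO vehicle and at 0.975, 1.05, 4.43 and 1.03 FPKM in sham vehicle libraries. UUO vehicle 1 was the lowest obstructed library and sham vehicle 3 the highest sham library, and the groups still did not overlap. Ccnb2 rose by 2.00 (SE 0.26, adjusted p = 1.1e-06). Cdk1, Ccna2 and Ccnb1 rose by 1.84, 1.83 and 1.32. Foxm1, the transcription factor of late cell cycle genes, stood at 0.88, 1.53, 1.9 and 0.251 FPKM in UUO vehicle and at 0.193, 0.178, 0.446 and 0.25 FPKM in sham vehicle libraries. UUO vehicle 4 lay within the range of the sham libraries. Foxm1 passed narrowly (log2 change 0.69, SE 0.27, adjusted p = 0.0287), and without UUO vehicle 3 the change was 0.52 (adjusted p = 0.109).

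Among the mitotic kinases and the checkpoint, Plk1, which drives entry into mitosis and centrosome maturation, stood at 3.12, 6.37, 4.67 and 4.39 FPKM in UUO vehicle. In sham vehicle libraries it stood at 0.439, 0.452, 1.93 and 0.247 FPKM. The groups did not overlap, and Plk1 rose by 1.73 (SE 0.23, adjusted p = 1.55e-06). The spindle kinase Aurka and the checkpoint kinase Bub1b rose by 1.33 each, Aurkb of the chromosomal passenger complex by 1.37 and the checkpoint kinase Bub1 by 0.94. Bub1 was listed at 0 in sham vehicle 2 and at no more than 0.189 FPKM in the other sham vehicle libraries.

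The anaphase-promoting complex is switched on by Cdc20 and charged by the ubiquitin-conjugating enzyme Ube2c. Cdc20 stood at 5.43, 11.2, 6.76 and 6.96 FPKM in UUO vehicle and at 1.04, 1.59, 5.67 and 1.08 FPKM in sham vehicle libraries. Sham vehicle 3 exceeded UUO vehicle 1, so the groups overlapped through that library. Cdc20 rose by 1.51 (SE 0.26, adjusted p = 4.44e-05), a ratio of means of 3.23 with and 6.13 without sham vehicle 3. Ube2c stood at 5.02, 9.88, 6.26 and 6.93 FPKM in UUO vehicle and at 0.497, 0.541, 2.34 and 0.49 FPKM in sham vehicle libraries. The groups did not overlap, and Ube2c rose by 2.09 (SE 0.21, adjusted p = 3.79e-08), the most of the mitosis genes on the log2(FPKM + 1) scale. By ratio of means Ube2c was at 7.27, below 6 other mitosis genes, from Aurkb at 7.52 to Bub1 at 13.1.

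Of the chromosome proteins, Mki67, the proliferation antigen Ki-67, stood at 3.91, 7.1, 5.88 and 6.15 FPKM in UUO vehicle and at 0.474, 0.34, 2.34 and 0.325 FPKM in sham vehicle libraries. Every obstructed library was higher than every sham library. Mki67 rose by 1.95 (SE 0.22, adjusted p = 1.7e-07), with a ratio of means of 6.63 with and 15.2 without sham vehicle 3. Birc5 (survivin), Top2a (topoisomerase II) and the kinetochore motor Cenpe rose by 1.86, 1.83 and 0.97. The untested Cenpf averaged 0.753 ± 0.221 FPKM in UUO vehicle and 0.131 ± 0.136 FPKM in sham vehicle libraries (SD, n = 4 each).

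The spindle and cytokinesis genes were led by Tpx2, which nucleates spindle microtubules and activates Aurka. It stood at 1.92, 5, 2.92 and 2.8 FPKM in UUO vehicle and at 0.221, 0.32, 1.33 and 0.185 FPKM in sham vehicle libraries. The groups did not overlap, and Tpx2 rose by 1.47 (SE 0.20, adjusted p = 2.13e-06). Racgap1, a regulator of the contractile ring, and the kinesins Kif11, Kif23 and Kif20a rose by 1.37, 1.22, 1.03 and 1.03. Prc1, which bundles the microtubules of the central spindle, stood at 0.408, 1.03, 0.61 and 1.85 FPKM in UUO vehicle and at 0.0931, 0.122, 0.44 and 0.0707 FPKM in sham vehicle libraries. Sham vehicle 3 overlapped with UUO vehicle 1. Prc1 rose by 0.70 (SE 0.19, adjusted p = 0.0028).

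Sham vehicle 3 was the highest sham vehicle library for 32 of the 41 genes, including each of the 23 mitosis genes and 9 of 18 replication genes, whereas it was highest for 24.7% of all tested genes. Its mean log2 level of the mitosis genes was 1.18, against 0.40 to 0.44 in the other 3 sham vehicle libraries. Its mean level of the replication genes was 1.90, close to the 1.81 of sham vehicle 2. The macrophage markers summed to 62.9 FPKM in sham vehicle 3, less than the 72.3 to 73.6 FPKM of the other sham vehicle libraries, and its injured tubule markers to 140 FPKM, within the 115 to 143 FPKM of the others. Its erythroid (759 FPKM) and proximal tubule (2932 FPKM) sums were the highest of the group. Its fibroblast and pericyte (43 FPKM) and endothelial (29.6 FPKM) sums were the lowest. Its estimated depth of 10420000 fragments lay between those of the other 3, at 10260000 to 10740000 fragments. The cause of its high mitosis levels was not tested. Without that library, UUO vehicle against sham vehicle gave a median ratio of means of 11.2 for the mitosis genes and 2.56 for the replication genes, and 17 replication and 22 mitosis genes passed.

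**Figure D3:**
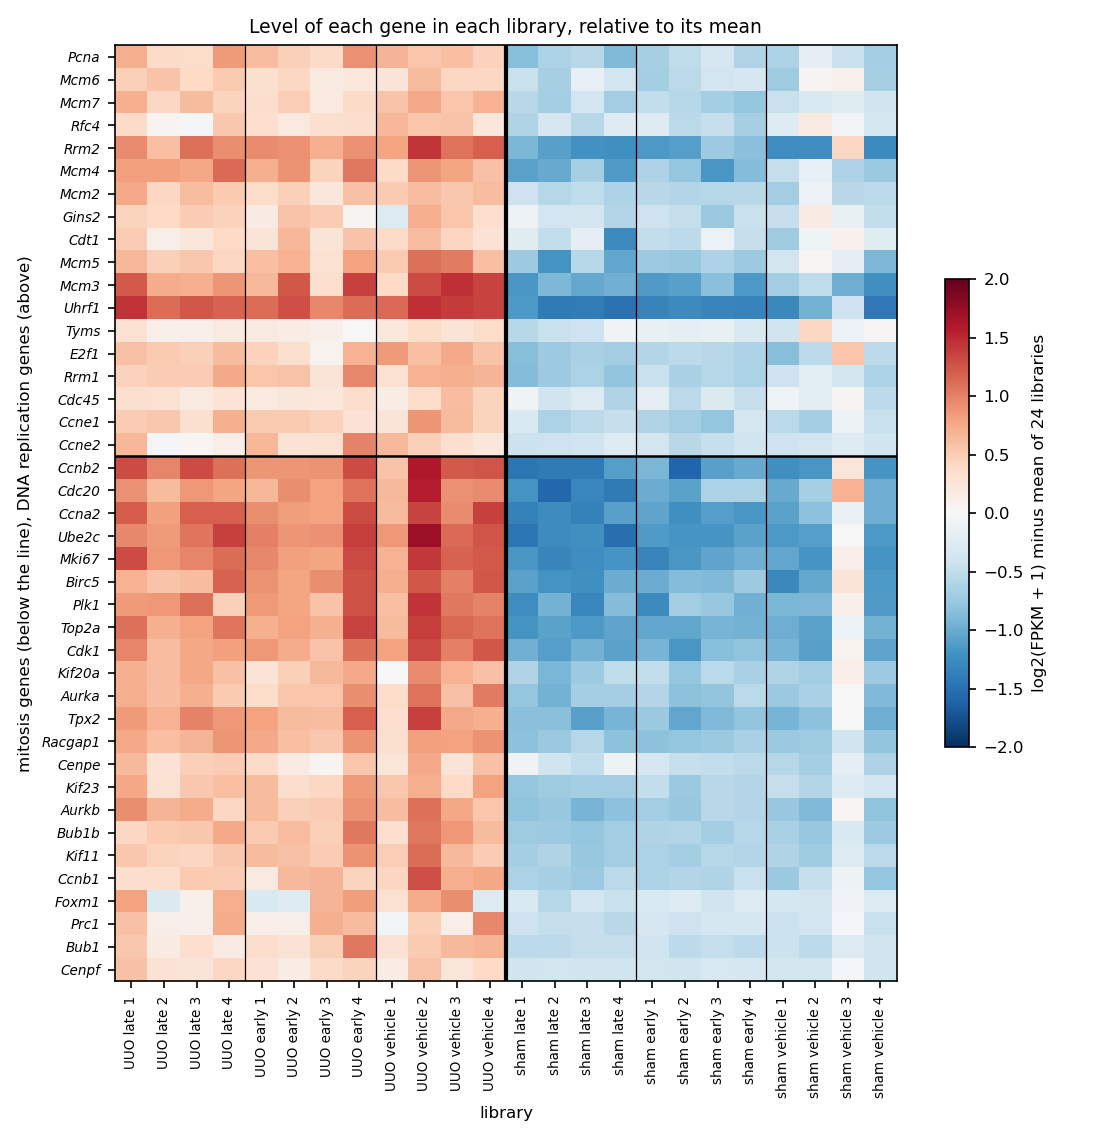
Log2(FPKM + 1) of each of the 41 genes in each of the 24 libraries, minus the gene's mean over the libraries, with the scale ending at -2 and 2. Columns are libraries by group and the thick line parts UUO from sham. UUO columns are mostly red, and the sham vehicle 3 column is pale or red where the other sham columns are blue, above all in the mitosis genes.

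The same comparison within the drug courses asked how obstruction altered these genes when istradefylline was given. In UUO early against sham early, 18 replication and 21 of 22 mitosis genes rose, beside 71.9% of all tested genes called, 54.7% upward and 17.3% downward. In UUO late against sham late, 18 replication and 22 mitosis genes rose, beside 75.6% called, 59.0% upward and 16.5% downward. Of the genes that sham libraries alone would have admitted, all 14 replication and 2 mitosis genes rose in each course. Of the 11036 genes so admitted, 47.9% rose in the early and 53% in the late comparison. Foxm1 was the exception in the early course, with 0.23, 0.272, 1.44 and 1.72 FPKM in UUO early and 0.223, 0.269, 0.157 and 0.252 FPKM in sham early libraries. UUO early 1 and 2 were at the sham level and UUO early 3 and 4 far above it, and the log2 change of 0.55 had an adjusted p of 0.0722. In the late course Foxm1 stood at 1.65, 0.247, 0.634 and 1.52 FPKM in UUO late and at 0.21, 0.0208, 0.167 and 0.117 FPKM in sham late libraries. There the groups did not overlap (log2 change 0.77, adjusted p = 0.0138).

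The median log2 change of the replication genes was 1.00 in the early and 1.12 in the late comparison, and that of the mitosis genes 1.37 and 1.50, against 0.40 and 0.49 for all tested genes. The median ratio of mean FPKM was 2.63 in the early and 3.07 in the late comparison for replication genes. For mitosis genes it was 8.73 and 11.8, and for all tested genes 1.43 and 1.56. All 4 obstructed libraries stood above all 4 sham libraries for 39 of 40 genes in the early and 40 of 40 in the late comparison, as for 51.0% and 56.2% of all tested genes. With median-of-ratios scaling, 16 replication and 21 mitosis genes passed in the early and 14 and 22 in the late comparison. Tyms then turned to -0.03 in the early comparison.

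On the log2 scale Uhrf1 had the largest change of the replication genes in both courses as well. Uhrf1 averaged 6.45 ± 0.724 FPKM in UUO early and 0.372 ± 0.03 FPKM in sham early libraries, and 7.11 ± 0.836 FPKM in UUO late and 0.333 ± 0.145 FPKM in sham late libraries (SD, n = 4 each). Mki67 averaged 5.05 ± 1.08 FPKM in UUO early and 0.406 ± 0.147 FPKM in sham early libraries, and 5.42 ± 0.844 FPKM in UUO late and 0.302 ± 0.0605 FPKM in sham late libraries. The ratio of means was 17.4 and 21.3 for Uhrf1 and 12.5 and 17.9 for Mki67 in the early and the late comparison. Ube2c rose by 2.18 in the early and 2.43 in the late comparison, and Ccnb2 by 2.14 and 2.52.

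Over all treatments, all 12 UUO libraries stood above all 12 sham libraries for 14 of 18 replication genes (77.8%) and 18 of 22 mitosis genes (81.8%), as for 35.1% of all tested genes. The filter favours such separation for the genes that entered the test only with UUO libraries. The replication genes that overlapped were E2f1, Gins2, Rfc4 and Tyms, and the mitosis genes were Cdc20, Foxm1, Kif20a and Prc1. Without sham vehicle 3, 15 replication and 21 mitosis genes were so separated, and 35.8% of all tested genes. E2f1, for example, lay between 2.46 and 4.97 FPKM in the UUO libraries, while sham vehicle 3 was at 3.88 FPKM and the other sham libraries at no more than 1.3 FPKM.

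Replication and mitosis genes differed more in level in sham kidneys than in obstructed ones. The mean log2 level of the replication genes was 2.63 ± 0.10 in UUO late, 2.60 ± 0.13 in UUO early and 2.72 ± 0.14 in UUO vehicle, against 1.41 ± 0.08 in sham late, 1.46 ± 0.03 in sham early and 1.66 ± 0.23 in sham vehicle libraries (SD, n = 4 each). That of the mitosis genes was 1.90 ± 0.12 in UUO late, 1.89 ± 0.21 in UUO early and 2.00 ± 0.27 in UUO vehicle, against 0.35 ± 0.03 in sham late, 0.46 ± 0.06 in sham early and 0.61 ± 0.38 in sham vehicle libraries. The mitosis mean minus the replication mean was -0.73, -0.71 and -0.72 in UUO late, early and vehicle, against -1.07, -0.99 and -1.05 in sham late, early and vehicle libraries. Among single libraries it lay between -0.90 and -0.53 with obstruction and between -1.38 and -0.72 without, where sham vehicle 3 had the -0.72.

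**Figure D4:**
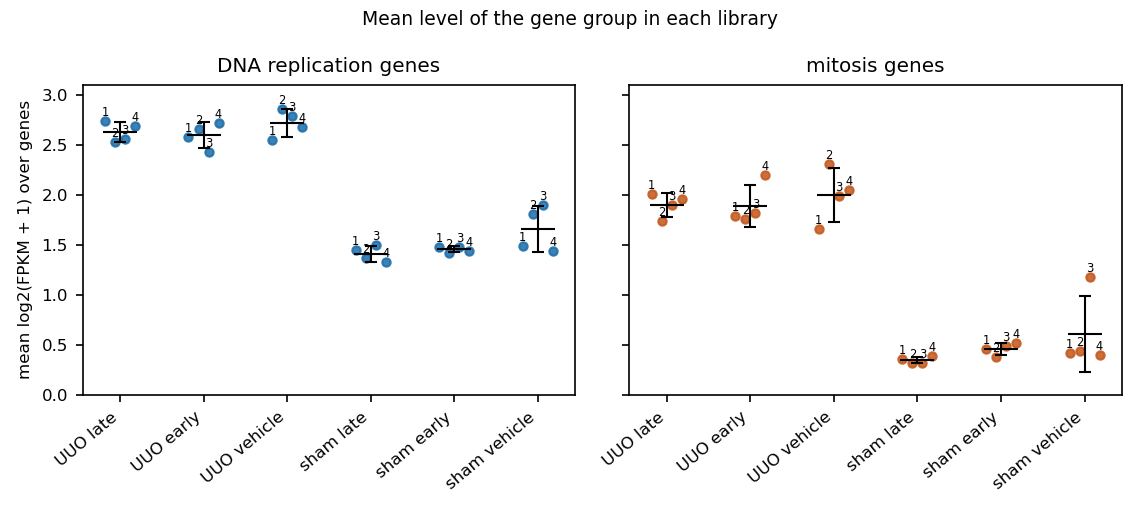
Mean log2(FPKM + 1) over the 18 replication genes (left) and the 23 mitosis genes (right) in each library, numbered by replicate, with the group mean and SD as bars. UUO libraries lie between 2.43 and 2.86 for replication and between 1.66 and 2.31 for mitosis genes, above the sham libraries, and sham vehicle 3 lies apart at 1.18 in the mitosis panel.

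Counts behind these values were small in sham kidneys. From the estimated depth, the mitosis genes rested on a median of 82 fragments per library in UUO vehicle and 15 in sham vehicle, and on 87 in UUO late and 6 in sham late. The replication genes rested on a median of 167.5 fragments in UUO vehicle and 56 in sham vehicle. Low sham values such as those of Bub1, listed at 0 in 5 of the 12 sham libraries, therefore rest on few fragments.

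Within the obstructed groups the genes tended to be high or low in the same libraries. UUO vehicle 2 was the highest of its group for 25 of the 41 genes and UUO vehicle 1 the lowest for 32, while these libraries were highest for 35.9% and lowest for 36.1% of all tested genes. UUO early 4 was the highest for 31 genes (28.5% of all tested genes) and UUO early 3 the lowest for 22 (33.7%). UUO late 1 was the highest for 22 (27.5%) and UUO late 2 the lowest for 23 (26.6%). The macrophage markers moved in the same order at the ends of 2 groups, with 2163 FPKM in UUO vehicle 2 and 1061 FPKM in UUO vehicle 1, and with 3595 FPKM in UUO early 4 and 1579 FPKM in UUO early 3. Proximal tubule markers moved the other way, with 566 FPKM in UUO vehicle 2 and 1138 FPKM in UUO vehicle 1, and with 181 FPKM in UUO early 4 and 1138 FPKM in UUO early 3. In UUO late the macrophage order was not seen, with 1276 FPKM in UUO late 1, the lowest of its group, and 1545 FPKM in UUO late 2. The proximal tubule order was seen between these libraries, with 575 FPKM in UUO late 1 and 941 FPKM in UUO late 2. The lowest proximal tubule sum of the group, however, was 267 FPKM in UUO late 4, which was the highest for only 11 of the 41 genes. The part of these cell types in the members' values was not tested.

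The next question was whether istradefylline altered the proliferation genes of obstructed kidneys. In UUO early against UUO vehicle 0 of 40 genes passed, beside 0.0152% of all tested genes, and 1 had an unadjusted p under 0.05 (8.84% of all tested genes). In UUO late against UUO vehicle 0 passed, beside 0.137%, and 1 had an unadjusted p under 0.05 (9.58%). The 2 comparisons share the UUO vehicle libraries. The median log2 change was -0.16 for replication and -0.14 for mitosis genes in the early comparison, where 33 of 40 genes lay below 0, against a median of -0.00 and 50.6% below 0 for all tested genes. In the late comparison the median was -0.10 for both, with 28 of 40 below 0, against 0.04 and 39.9% for all tested genes.

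The genes with the smallest p in UUO early against UUO vehicle were Mcm7, Ccnb1 and E2f1, and none passed. Mcm7 stood at 9.26, 10.4, 8.25 and 9.56 FPKM in UUO early and at 11, 12.7, 10.8 and 12.1 FPKM in UUO vehicle libraries. Each of the 4 drug values was below each vehicle value, and the log2 change was -0.29 (SE 0.09, adjusted p = 0.407). Ccnb1 stood at 1.03, 1.8, 1.87 and 1.42 FPKM in UUO early and at 1.41, 3.34, 1.92 and 2.04 FPKM in UUO vehicle libraries. The groups overlapped, with UUO vehicle 2 apart on the high side, and the log2 change was -0.31 (adjusted p = 0.591). E2f1 stood at 3.56, 3.15, 2.46 and 4.38 FPKM in UUO early and at 4.97, 4.04, 4.6 and 3.89 FPKM in UUO vehicle libraries, with overlap and a log2 change of -0.31 (adjusted p = 0.664).

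In UUO late against UUO vehicle the smallest p belonged to Ccnb1, Rfc4 and Bub1, and none passed. Ccnb1 stood at 1.28, 1.28, 1.56 and 1.54 FPKM in UUO late libraries, against the UUO vehicle values above. The groups overlapped because UUO vehicle 1 was within the drug range, and the log2 change was -0.36 (adjusted p = 0.449). Rfc4 averaged 6.06 ± 1.28 FPKM in UUO late and 7.42 ± 1.03 FPKM in UUO vehicle libraries (log2 change -0.26, adjusted p = 0.557). Bub1 averaged 0.772 ± 0.228 FPKM in UUO late and 1.09 ± 0.246 FPKM in UUO vehicle libraries (log2 change -0.24, adjusted p = 0.596). Mki67 averaged 5.42 ± 0.844 FPKM in UUO late, 5.05 ± 1.08 FPKM in UUO early and 5.76 ± 1.34 FPKM in UUO vehicle libraries, less apart than the spread within each group.

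The courses were also compared with each other. In UUO late against UUO early 0 of 40 genes passed, beside 0.0305% of all tested genes, and 2 had an unadjusted p under 0.05 (8.48%). The median log2 change was 0.04 for replication and 0.02 for mitosis genes, like the 0.04 of all tested genes. Ccne2 had the smallest p, with 1.62, 0.602, 0.705 and 0.815 FPKM in UUO late and 1.63, 1.03, 1.05 and 2.27 FPKM in UUO early libraries. UUO late 1 lay within the early values and the other 3 below them, and the log2 change was -0.37 (adjusted p = 0.538). Mcm7 (0.20, adjusted p = 0.588) and Bub1 (-0.25, adjusted p = 0.633) followed.

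A gene that did not pass may still differ. The 95% intervals of the change reached from -0.79 to 0.45 over all tested members in UUO early against UUO vehicle and from -0.77 to 0.55 in UUO late against UUO vehicle. The distance from a change to the end of its interval had a median of 0.31 for replication and 0.38 for mitosis genes. These intervals are not adjusted for the number of genes. A change beyond that size could also miss the adjusted threshold, such as -0.37 for the replication gene Ccne2 in UUO late against UUO early.

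**Figure D5:**
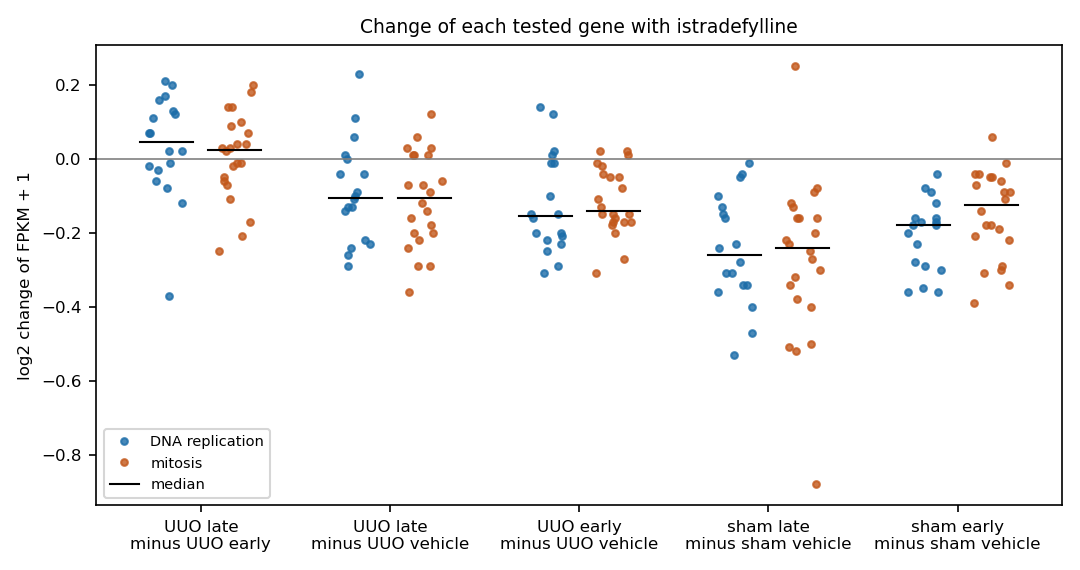
Log2 change of FPKM + 1 of each tested proliferation gene in the 5 comparisons of istradefylline courses, with a black line for the median of the replication and of the mitosis genes. No gene passed an adjusted p of 0.05. In both sham comparisons nearly all points lie below 0, and Cdc20 is the lowest at -0.88 in sham late minus sham vehicle.

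In sham kidneys the drug comparisons asked how istradefylline altered these genes without obstruction. In sham early against sham vehicle 0 of 40 genes passed, beside 0.00762% of all tested genes, and 4 had an unadjusted p under 0.05 (8.55%). In sham late against sham vehicle 0 passed, beside 1.42%, and 11 had an unadjusted p under 0.05 (16.4%). In each of these comparisons, which share the sham vehicle libraries, 39 of 40 genes lay below 0, against 65% and 69.9% of all tested genes. The median was -0.18 for replication and -0.13 for mitosis genes in the early comparison and -0.26 and -0.24 in the late one, against -0.06 and -0.09 for all tested genes. Because each sham late library was shallower than each sham vehicle library, depth and the late course cannot be told apart here.

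Without sham vehicle 3, the mitosis median was 0.05 in sham early against sham vehicle, with 5 of 22 genes below 0, and -0.05 in sham late against sham vehicle, with 17 of 22 below 0. The replication medians were -0.11 and -0.17 without it, with 16 and 14 of 18 genes below 0. Cdc20 had the smallest p in the late comparison, with 0.806, 0.39, 0.661 and 0.549 FPKM in sham late and 1.04, 1.59, 5.67 and 1.08 FPKM in sham vehicle libraries. The groups did not overlap. Its log2 change was -0.88 (SE 0.26, adjusted p = 0.0959) and, without sham vehicle 3, -0.48 (adjusted p = 0.17).

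The replication genes with the next smallest p changed little without that library. Mcm5 stood at 1.19, 0.567, 1.43 and 0.753 FPKM in sham late and at 1.8, 2.68, 2.15 and 0.938 FPKM in sham vehicle libraries. The groups overlapped through sham vehicle 4, and the log2 change was -0.53 with and -0.47 without sham vehicle 3 (adjusted p = 0.13 and 0.224). Without sham vehicle 4 instead, it was -0.71 and passed (adjusted p = 0.0392). Mcm4 stood at 1.17, 1.28, 1.89 and 1.09 FPKM in sham late and at 2.3, 3.09, 1.98 and 1.72 FPKM in sham vehicle libraries. Sham late 3 exceeded sham vehicle 4, and the log2 change was -0.47 with and -0.51 without sham vehicle 3 (adjusted p = 0.13 and 0.145). In the early comparison Mcm7, Rfc4 and Mcm4 had the smallest p, with log2 changes of -0.28, -0.36 and -0.36 (adjusted p = 0.387, 0.465 and 0.553).

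Whether a course acted otherwise in obstructed than in sham kidneys was tested as an interaction, the drug change in UUO minus the drug change in sham. For the early course 0 of 40 genes passed, beside 0.00762% of all tested genes, and 1 had an unadjusted p under 0.05 (5.43%). For the late course 0 passed, beside 0.0305%, and 2 had an unadjusted p under 0.05 (15.1%). The early interaction had a median of 0.06 for both sublists, as for all tested genes. The late one had 0.18 for replication and 0.16 for mitosis genes, against 0.14 for all tested genes. Without sham vehicle 3, the mitosis median was -0.18 in the early interaction, with 19 of 22 genes below 0, and -0.00 in the late one, and the replication medians were 0.01 and 0.06. Mcm4 had the smallest p in both interactions, 0.47 in the early (adjusted p = 0.865) and 0.69 in the late course (adjusted p = 0.175). It averaged 7.49 ± 1.03 FPKM in UUO late, 6.93 ± 1.4 FPKM in UUO early and 6.28 ± 1.09 FPKM in UUO vehicle, against 1.36 ± 0.363 FPKM in sham late, 1.55 ± 0.39 FPKM in sham early and 2.27 ± 0.593 FPKM in sham vehicle libraries. Its means were thus ordered late, early, vehicle in the obstructed kidneys and in the reverse order in the sham ones. Ccna2 and Cdc20 followed in the late interaction at 0.54 and 0.66 (adjusted p = 0.324 and 0.414), and without sham vehicle 3 they were at 0.33 and 0.26. Ccnb1 at -0.26 and Cenpe at -0.23 followed in the early interaction (adjusted p = 0.868 each).

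Other genes of the same pathways were counted from lists. Of 39 tested further replication genes, 34 rose and 1 fell in UUO vehicle against sham vehicle, with a median log2 change of 0.65, beside 50.3% higher, 16.7% lower and a median of 0.32 for all tested genes. Of the 29 that sham libraries alone would have admitted, 24 rose and 1 fell, beside 43.9% that rose of the 11036 genes so admitted. Those with the smallest p were Rfc3, a clamp loader subunit (4.35 ± 0.477 FPKM in UUO vehicle and 1.68 ± 0.198 FPKM in sham vehicle, SD, n = 4 each), Cdc7, the kinase that fires origins (1.39 ± 0.221 and 0.2 ± 0.0457 FPKM), and Pold3, a subunit of DNA polymerase delta (9.48 ± 0.401 and 4.87 ± 0.345 FPKM). Of 45 tested further mitosis genes, 40 rose and 0 fell, with a median of 1.00. Of the 17 that sham libraries alone would have admitted, 12 rose and 0 fell, beside the same 43.9%. Cks1b, a Cdk-binding subunit, rose by 1.99 (21.2 ± 2.11 and 4.63 ± 0.963 FPKM), Cdc25b, the phosphatase that activates Cdk1, by 1.33, and Ndc80 of the outer kinetochore by 1.67.

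Of 24 tested G1 cyclins, kinases, E2F and pocket protein genes, 14 rose and 1 fell, with a median of 0.39, near the 50.3% higher and the median of 0.32 of all tested genes. Of the 18 that sham libraries alone would have admitted, 10 rose and 1 fell, beside 43.9% that rose of all genes so admitted. Cdk6 rose by 1.40, cyclin D2 (Ccnd2) by 2.13 and Myc by 2.17. Of 13 genes that restrain the cycle, 11 rose and 1 fell, with a median of 0.79, beside the same 50.3% and 0.32. Of the 11 that sham libraries alone would have admitted, 9 rose and 1 fell, beside the same 43.9%. Cdkn1a, the p21 inhibitor of cyclin-dependent kinases, averaged 32.2 ± 5.85 FPKM in UUO vehicle and 3.09 ± 1.11 FPKM in sham vehicle libraries and rose by 3.05. Pkmyt1, which holds Cdk1 inactive, rose by 1.82, and Fbxo5, an inhibitor of the anaphase-promoting complex, by 1.13. Most of the listed genes that restrain division thus rose in the same kidneys as the replication and mitosis genes.

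In the comparisons of a drug course with vehicle and of the courses in obstructed kidneys, 0 genes of these 4 lists passed. In sham late against sham vehicle, where 1.42% of all tested genes passed, 2 further replication genes fell, Prim1 of the primase (1.62 ± 0.0808 FPKM in sham late and 2.74 ± 0.52 FPKM in sham vehicle, adjusted p = 0.0224) and Pold3 (3.59 ± 0.0797 and 4.87 ± 0.345 FPKM, adjusted p = 0.0356). Mybl2, which encodes B-Myb, fell by 0.37 (adjusted p = 0.0276) at levels under 1 FPKM, and Ccng1, a p53 target, rose by 0.42 (adjusted p = 0.045). The lower depth of the sham late libraries applies to these changes as well.

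Markers of cell types were also counted. In UUO vehicle against sham vehicle all 11 macrophage, 7 T cell, 8 fibroblast and pericyte and 7 injured tubule markers tested rose, while 9 of 10 proximal tubule and all 9 loop, distal and collecting duct markers fell, beside 50.3% higher and 16.7% lower of all tested genes. The 3 tested B cell and plasma cell markers rose as well, and of 3 tested neutrophil markers 2 rose and 0 fell. Other lists were mixed or did not pass: of endothelial markers 3 rose and 1 fell of 6, of podocyte markers 2 of 5 rose, and of erythroid markers 0 of 5 passed. The summed fibroblast and pericyte markers were 403 to 837 FPKM in UUO vehicle and 43 to 69 FPKM in sham vehicle libraries, and the injured tubule markers 929 to 1147 and 115 to 143 FPKM. Which of these cells carried the proliferation transcripts was not tested.

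Single transcripts were not used for these genes. Of the 18 members with 2 or more transcripts listed, 12 had a different leading transcript in different UUO libraries, and 13 had a transcript at or under 0.05 FPKM in one UUO library and at or over 0.5 FPKM in another. The Racgap1-213 transcript, for example, stood at 3.61, 0.00148, 5.91 and 6.5 FPKM in UUO vehicle libraries 1 to 4, while the gene as a whole stood at 1.65, 2.73, 2.69 and 2.94 FPKM. Transcript values did not always add up to the gene value. Over the UUO libraries the median ratio of their sum to the gene value was 2.27 for Racgap1. Among the members it ran from 0.832 for Ccnb1 to 3.31 for Birc5. The fragment estimates above used the gene value and are approximate for such genes.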

How the data were processed

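RNA of whole left kidneys, in 24 libraries forming 6 groups of 4, was analysed from the deposited gene table. Its values are FPKM, computed by the authors. HISAT2, StringTie, cutadapt and build GRCm38 are named in the submitters' processing notes, without versions. The notes give no strand setting here, so reads of overlapping antisense genes may be mixed. Depth was estimated from the smallest steps of the transcript values, not read from counts.

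Levels were taken as log2(FPKM + 1). Genes with at least 1 FPKM in at least 4 of 24 libraries were tested, 13127 of 14407, with limma 3.58.1 in R 4.3.3 (trended prior, 1 mean per group, 18 residual degrees of freedom). P-values were adjusted over all tested genes in each of 10 comparisons by Benjamini-Hochberg, with a threshold of 0.05. Vehicle libraries are numbered by the last digit of their column name. The script was tested on simulated data. In the deposited table the highest group mean of every gene is at least 0.5002 FPKM.

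Members with values in full are the gene with the highest mean in each functional class, those with the largest and smallest changes with obstruction, and those with the smallest p in each drug comparison. Others are examples chosen after their values were seen. The members and all lists were chosen with earlier results of these data known. Promoter sequences are from RefSeq. Alternatives were another pseudocount, no filter, other scalings, a replicate block, only the groups compared, no trend and leaving out each library.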

Additional observations from a re-analysis of the deposited data

Results flagged for a closer look

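Some libraries lay far from the other 3 of their group in a named gene or in a list mean, by Dixon's criterion for 4 samples. Chance alone marks about 1 in 20 groups. Sham vehicle 3 was high in Rrm2 at 5.57 FPKM, E2f1 at 3.88, Ccnb2 at 4.43, Cdc20 at 5.67, Mki67 at 2.34, Plk1 at 1.93, Tpx2 at 1.33, Prc1 at 0.44 and Ube2c at 2.34 FPKM, and its mean log2 level of the mitosis genes was 1.18. Over all 41 genes it lay apart on the high side for 16, of which 14 were mitosis genes, against 1.27% of all tested genes.

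UUO early 4, the library with muscle and neutrophil transcripts, was high in Ccnb2 at 10.4 FPKM and in the mean log2 level of the mitosis genes at 2.20. In the same group Rrm2 was low in UUO early 3 at 7.13 FPKM. Among late libraries Mcm4 was high in UUO late 4 at 9.02 FPKM and Ccna2 low in UUO late 2 at 5.14 FPKM. Among sham libraries Mcm5 was high in sham early 3 at 1.34 FPKM, and sham late 4 was high in Ccne2 at 0.382 FPKM and in Ccnb2 at 1.14 FPKM.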

How the results depend on the processing

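The members called in UUO against sham numbered 38 to 40 (vehicle), 38 to 39 (early) and 39 to 40 (late) when each library was left out, and 35, 37 and 36 with median-of-ratios scaling. In sham late against sham vehicle 3 genes passed with a pseudocount of 0.1, Ccna2 at -1.03, Cdc20 at -1.48 and Kif23 at -0.93, and 0 to 1 when each library was left out. With that pseudocount the replication medians of UUO against sham were 1.38 (vehicle), 1.32 (early) and 1.40 (late) and the mitosis medians 2.63, 2.75 and 3.06. The mitosis median was then -0.67 in sham late against sham vehicle and 0.63 in the late interaction. With median-of-ratios scaling the replication medians were 0.71, 0.66 and 0.69, and the late mitosis median 1.25. With the same sum in every library the late replication median was 1.33. The cause of these differences was not tested. In no comparison did all 4 same-numbered pairs of libraries correlate above 0.1 in their deviations from the group means, so the numbers were not taken to pair them. UUO late against UUO early came nearest, with 3 of 4 pairs above 0.1 and a range of 0.04 to 0.44. With the number as a replicate block 40, 39 and 40 members were called with obstruction and 0 in the other 7 comparisons. For single genes, 572 of 588 alternatives left direction and call as they were, 14 ended a call (Tyms, Gins2 or Foxm1), 2 added one and 0 reversed a direction. Over the libraries left out, Tyms ranged over 0.20 to 0.47 and Foxm1 over 0.52 to 0.93. The depth limits the mitosis genes most, at a median of 6 estimated fragments per library in sham late.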
